A study of Mus musculus with 8 samples.

Results

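The cytosolic ribosomal proteins are the protein building blocks of the ribosome that translates nuclear-encoded mRNA. They were chosen by gene symbol alone, as the probe sets whose annotation names exactly 1 gene that begins with Rpl or Rps followed by a digit, or that is Rplp0, Rplp1 or Rplp2. The 3 probe sets of ribosomal S6 kinases were left out. This gave 48 of the 12422 probe sets that are not controls, for 34 of the 8251 genes with a symbol of their own. A probe set is a group of short oligonucleotides on the array that together report 1 transcript. The RNA came from cells that the labels call mouse aortic endothelial cells, comprising 4 samples of a mature confluent monolayer and 4 samples of subconfluent culture at under 50% confluency. Each sample was measured on 1 single-colour Affymetrix array. No genotype, strain, age, cell line or treatment was given for either group in the sources used here, so culture density is the difference between the groups that the labels name. The values are signals, which the authors scaled on each array to a target mean of 500, and they therefore show a transcript relative to all others on the array and not per cell.

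A ribosome has a small subunit, called 40S, which reads the mRNA, and a large subunit, called 60S, which joins the amino acids. Each subunit is assembled in the nucleolus from ribosomal RNA and about equal amounts of each of its proteins. The mRNAs of these proteins begin with a run of pyrimidines, the terminal oligopyrimidine tract, through which growth signals control how strongly they are translated. Growing and dividing cells make more ribosomes than resting ones. An array measures mRNA and does not show how strongly that mRNA is translated.

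Start regions of the genes are shown first because this shared layout is what the family is known for, and because Rpl22, the gene with the largest difference, can be set beside it. RefSeq promoter windows of build GRCm38.p6, from 250 bases before to 50 after a start, were found for 27 of the 34 genes. The letters CTTTCC, read in the direction of transcription and beginning within 10 bases of a start, occurred in 6 of these 27 genes (22.2%) and in 1.24% of all 27025 genes in the table. Those genes were Rpl13a, Rpl35a, Rpl38, Rpl39l, Rps10 and Rps27. The letters CTTCCG, which are the core that ETS family factors bind, occurred on either strand of the window in 18 of 27 (66.7%), against 18.8% of all genes. A match of one can share at most 1 letter with a match of the other. The lines below run 5′ to 3′ from 60 bases before to 15 bases after an annotated start, with CTTTCC in capitals, and likewise CTTCCG or its reverse complement.
Rpl22, chr4:152324376-152324450, plus strand: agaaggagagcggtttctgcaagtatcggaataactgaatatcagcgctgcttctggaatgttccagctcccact
Rpl22, chr4:152325666-152325740, plus strand: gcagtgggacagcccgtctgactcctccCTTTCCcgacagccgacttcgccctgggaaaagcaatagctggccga
Rps18, chr17:33955651-33955725, minus strand: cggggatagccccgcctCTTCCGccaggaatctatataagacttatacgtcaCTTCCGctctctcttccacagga
Rps27, chr3:90213634-90213708, minus strand: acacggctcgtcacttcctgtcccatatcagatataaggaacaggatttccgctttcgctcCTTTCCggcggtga
Rps10, chr17:27635230-27635304, minus strand: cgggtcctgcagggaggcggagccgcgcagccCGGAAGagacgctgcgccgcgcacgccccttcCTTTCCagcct

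Rps27 and Rps10 carry the pyrimidine letters at the start itself, and Rps18 has CTTCCG in 2 places of the stretch shown. Rpl22 has 2 annotated starts, and neither window holds CTTCCG or the pyrimidine letters within 10 bases of the start. The same held for both starts of Rpl10a and for that of Rps4x. Their tested log2 differences were -0.29 and -0.19, so the absence is not particular to Rpl22. RefSeq starts can lie some bases from the true start of an mRNA, and absence here says only that these letters are not in this window. The 15 tested probe sets of genes with CTTCCG had a median log2 difference of -0.08, and the 10 of matched genes without it -0.13.

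Testing was limited to probe sets whose signal averaged 200 or more across the 8 arrays, which kept 28 of the 48, for 23 genes. The other 20 had mean signals from 10.7 (Rpl38) to 127 (Rps13), so the members nearest to the limit were Rps13 below it and 1 probe set of Rpl22 above it at 202. Of these 20, 7 belong to genes with another probe set that was tested (Rpl7, Rps24, Rps29 and Rps4x). The remaining 13 were the only probe sets of Rpl32, Rpl35a, Rpl38, Rpl39, Rps13, Rps14, Rps15, Rps20 and of the paralogs Rpl39l, Rps27l and Rps4l. A low signal here is a property of the probe set as well as of the transcript. Rps4x, a small subunit protein encoded on the X chromosome, had 5 probe sets, of which 1 had a mean of 17115 and the other 4 had means from 22.6 to 111. Of a fixed list of 80 ribosomal protein genes, 30 had a probe set that the rule takes and 22 had a tested one.

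**Figure D1:**
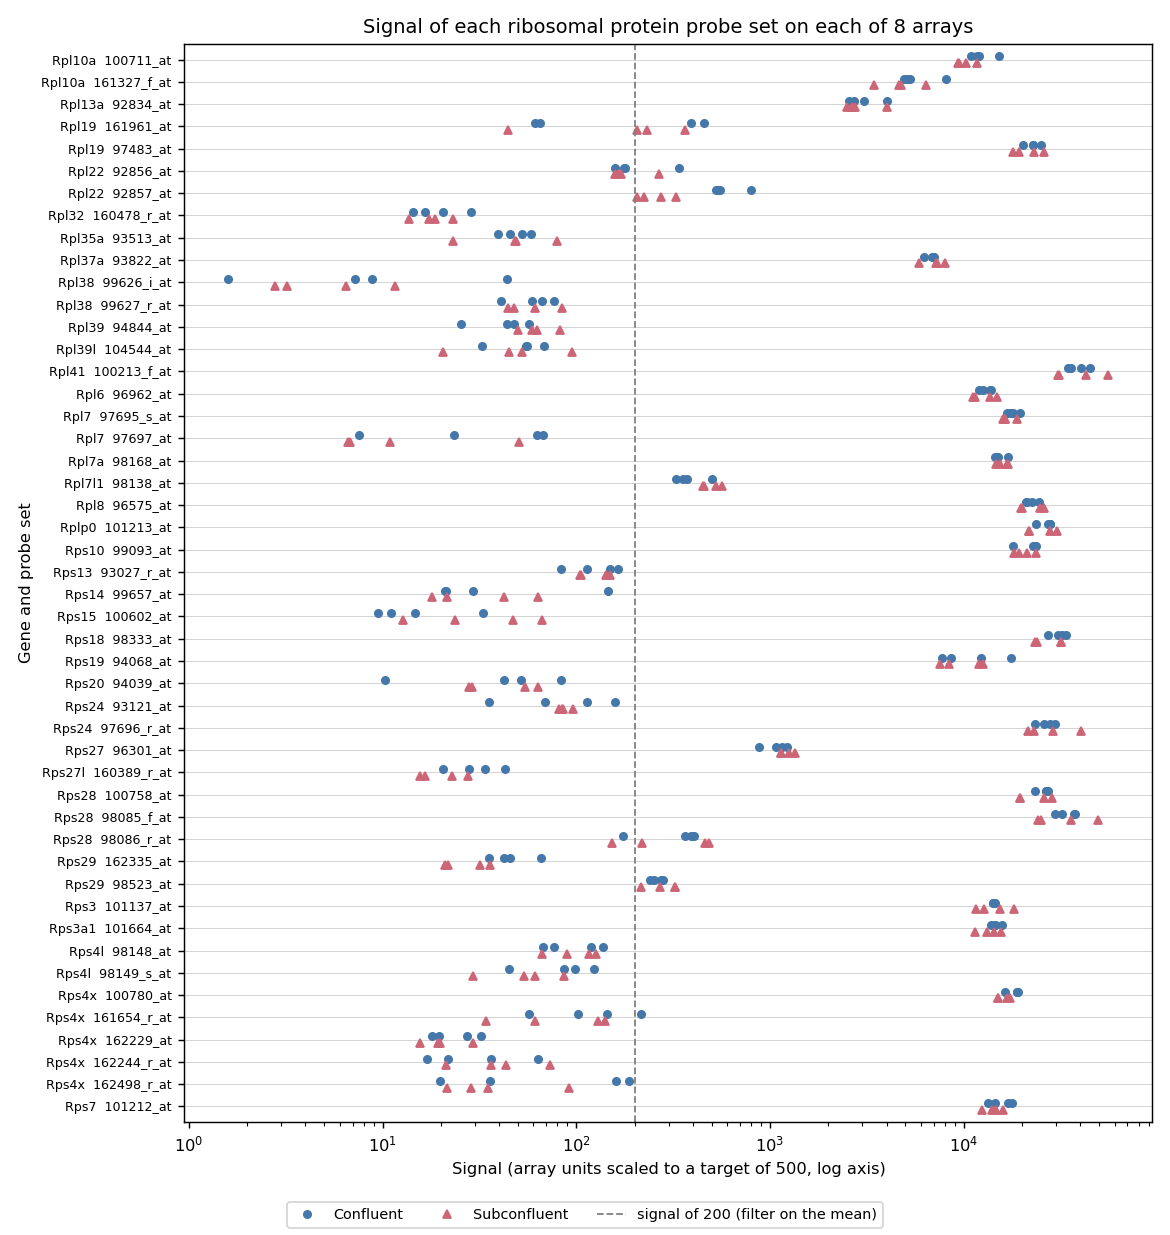
Signal of each of the 48 ribosomal protein probe sets (rows, gene and probe set) on a log axis, with 4 confluent arrays as circles and 4 subconfluent arrays as triangles, and a dashed line at a signal of 200. The 28 tested probe sets have a mean at or right of the line, 18 of them above 10000, and in nearly every row the circles and triangles overlap, with the brighter Rpl22 probe set as the exception among those tested.

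The labelled cell type was not borne out by most of its markers. As for the members, a low signal can also be a property of the probe set, so the markers do not settle the cell type. Of 15 endothelial markers on the arrays 2 had a mean signal of at least 200 (Cd34 and Eng), and Pecam1, Cdh5, Kdr, Tek and Vwf were among the 13 below it. Of 14 fibroblast and pericyte markers 8 reached it, and Dpt, Fap, Mfap5, Pdgfrb, Postn and Rgs5 did not. Their summed signal ran from 57139 to 81633 on the confluent and from 27970 to 41761 on the subconfluent arrays, against 2083 to 4163 and 2454 to 4151 for the endothelial markers. Macrophage markers, of which only Cd14 of 10 reached the limit, summed to 2861 to 4144 on the confluent and 1991 to 2681 on the subconfluent arrays, again without overlap. Smooth muscle markers, with 3 of 7 at the limit, summed to 1784 to 3782 and 1926 to 10499, which overlap. The part of these shifts in the differences given here was not tested. In such bulk RNA, fewer cells of a type and less RNA per cell cannot be told apart.

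Of the 28 tested probe sets, 1 fell in subconfluent cells and 0 rose by limma at an adjusted p under 0.05, where 4.06% of all 6007 tested probe sets fell and 2.75% rose. At an unadjusted p under 0.05 it was again 1 of 28, against 25.9% of all tested. The median log2 difference, subconfluent minus confluent, was -0.08 over the 28 and 0.01 over all tested probe sets. Differences ran from -1.08 to 0.33, and their quartiles were -0.13 and 0.01. In 18 of the 28 (64.3%) the 95% interval of the difference lay within 0.5 on the log2 scale on either side of 0, that is within 1.41-fold, as it did for 19.2% of all tested probe sets. For those 18 this fit, which takes no account of pairs or chip lot, leaves room for a change of less than 1.41-fold in either direction. The share of such intervals was 83.3% for members with a mean above 10000 and 30.0% for tested members under 10000. For other tested probe sets with a mean above 10000 it was 36.8%. With the experiment numbers as pairs the counts were again 1 and 0, where 11.3% of all tested probe sets fell and 9.94% rose. At an unadjusted p under 0.05 with the pairs it was 4 of 28, against 35.6% of all tested, namely the brighter Rpl22 probe set, both Rpl10a probe sets and Rpl7l1, the last of which was higher in subconfluent cells.

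**Figure D2:**
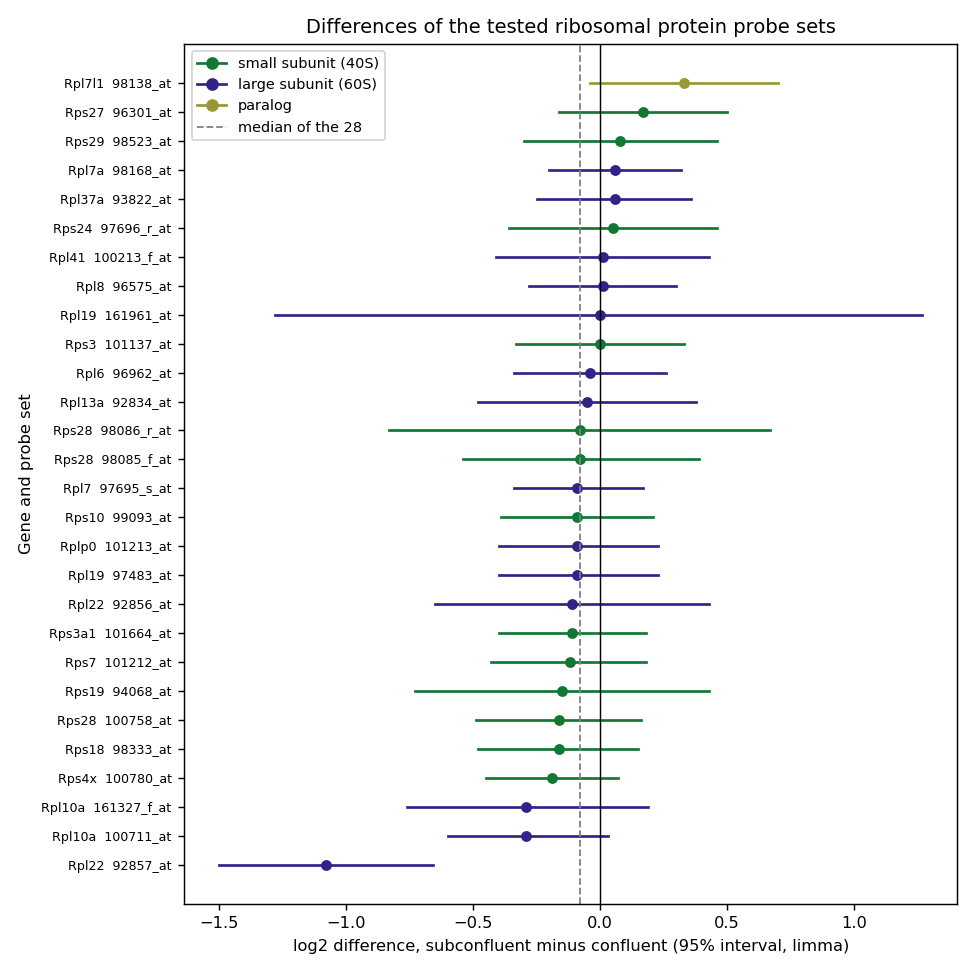
The log2 difference of each of the 28 tested probe sets (point) with its 95% interval from limma (line), coloured by subunit, with a solid line at 0 and a dashed line at the median of -0.08. The brighter Rpl22 probe set lies apart at -1.08, with an interval from -1.50 to -0.66, and every other interval includes 0.

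Rpl22 encodes a large subunit protein that binds RNA hairpins and that many cells can do without. The brighter of its 2 probe sets, with a mean of 430, read 801, 536, 551 and 524 on confluent arrays 1 to 4 and 224, 207, 327 and 274 on subconfluent arrays 1 to 4. All 4 subconfluent values lay below all 4 confluent ones, a pattern that 8.54% of all tested probe sets showed in this direction and 8.34% in the other. It was the only one of the 28 without overlap. The means were 603 ± 132 and 258 ± 54.0 (SD, n = 4), a 2.12-fold fall (log2 -1.08 ± 0.19 SE, limma adjusted p = 0.0136). The fall was present in all 4 pairs, at -1.64, -1.19, -0.67 and -0.83. It kept its call whichever single array was left out, with differences from -1.18 to -0.95 and an adjusted p up to 0.0374. Confluent replicate 1, at 801, was the highest array and stood apart from the other confluent ones.

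The other Rpl22 probe set read 179, 158, 177 and 341 on the confluent arrays and 268, 159, 170 and 165 on the subconfluent arrays, which overlap. Its difference was -0.11, with a 95% interval from -0.65 to 0.43 (limma adjusted p = 0.837). Its mean signal of 202 lay just above the limit for testing. Whether the 2 probe sets differ from each other was not tested, and which transcripts each one reports was not given in the sources used here.

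**Figure D3:**
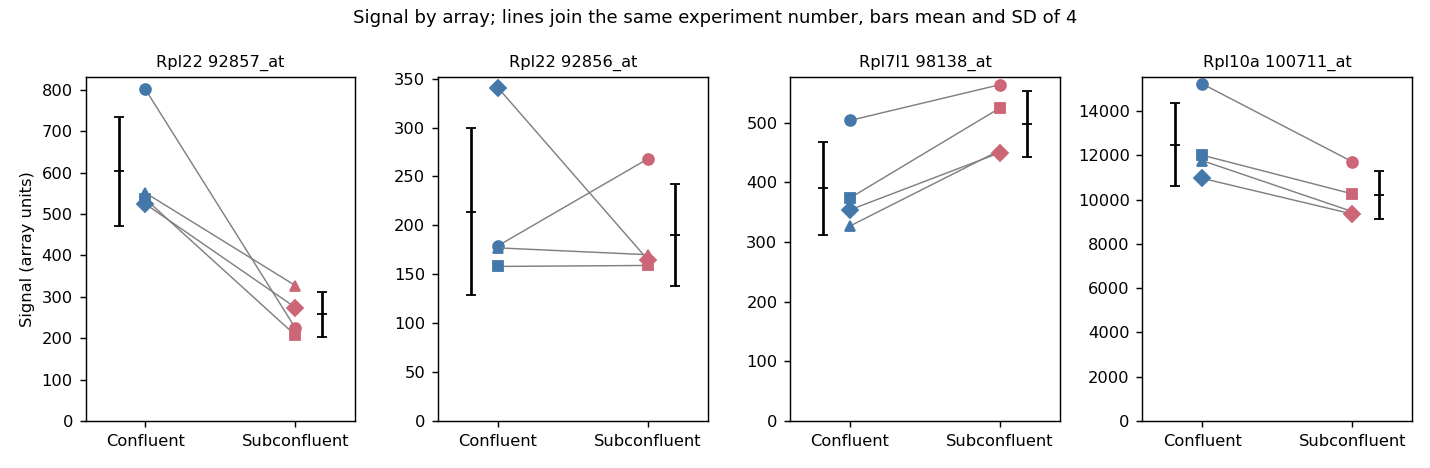
Signal by array for both Rpl22 probe sets, Rpl7l1 and Rpl10a, each on its own linear axis from 0, with lines joining arrays of the same experiment number and bars for mean and SD of 4 arrays. The 4 lines of the brighter Rpl22 probe set (leftmost) all go down without overlap between the groups, those of the dimmer one go both ways, those of Rpl7l1 all go up and those of Rpl10a all go down, the last 2 with overlap.

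Among the large subunit proteins, 14 probe sets of 11 genes were tested, with a median of -0.07. Of these 1 fell (Rpl22) and 0 rose, against 4.06% and 2.75% of all tested probe sets. Rpl10a, another large subunit protein, came next after Rpl22. The brighter of its probe sets read 15222, 12001, 11755 and 10956 in confluent and 11707, 10255, 9456 and 9346 in subconfluent cells. Each pair went down while the groups overlapped, with a difference of -0.29 ± 0.14 SE (limma adjusted p = 0.239). A second Rpl10a probe set, whose name marks a family of related sequences, read 8084, 5305, 5083 and 4943 in confluent and 6363, 4625, 3454 and 4739 in subconfluent cells. It also went down in each pair, with overlap, and its difference was -0.29 ± 0.22 SE (limma adjusted p = 0.447).

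The other tested proteins of this subunit lay closer to 0. Rplp0, the base of the P stalk that recruits elongation factors, read 27378, 27846, 27920 and 23735 in confluent and 21755, 30427, 27754 and 21683 in subconfluent cells. Its subconfluent arrays thus held both the lowest and the highest value, and its difference was -0.09, with an interval from -0.40 to 0.23. Rplp1 and Rplp2, which complete the stalk, had no probe set that names 1 gene. Rpl8, which sits close to the site of peptide bond formation, read 22604, 24558, 21169 and 20952 in confluent and 19788, 25868, 24841 and 19983 in subconfluent cells. Its subconfluent range enclosed the confluent one, and its difference was 0.01 (interval -0.28 to 0.30). Rpl7a, which contacts the large subunit's RNA, read 15033, 16950, 14823 and 14413 in confluent and 14693, 16731, 16934 and 15408 in subconfluent cells. The groups overlapped almost fully, with a difference of 0.06 (interval -0.20 to 0.32). Rpl37a, a small zinc-binding protein, read 6243, 6882, 6957 and 7054 in confluent and 7238, 7201, 7997 and 5899 in subconfluent cells. Here 3 subconfluent arrays lay above the confluent ones and replicate 4 below them, and the difference was 0.06 (interval -0.25 to 0.36). These intervals, that of Rplp0 included, exclude a change of 1.41-fold either way in the fit without pairs or chip lot. With chip lot as a fixed block Rplp0 was at -0.25, Rpl8 at -0.04, Rpl7a at 0.06 and Rpl37a at 0.08. Intervals under that setting are not given here.

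Rpl6, Rpl7, Rpl13a and Rpl19 ran from -0.09 to 0.00. Rpl13a, also known for a role in silencing translation of inflammatory mRNAs, was at -0.05 (interval -0.48 to 0.38). Rpl19 was measured by 2 probe sets. The brighter one was at -0.09 (interval -0.40 to 0.23), while the dimmer one ran from 44 to 457 over the 8 arrays and had an interval from -1.28 to 1.27, so it holds little information. Rpl41, the smallest ribosomal protein, read 35888, 40091, 44699 and 34509 in confluent and 30472, 55824, 42764 and 31164 in subconfluent cells. Its difference of 0.01 (interval -0.41 to 0.43) was negative under several other settings.

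Among the small subunit proteins, 13 probe sets of 11 genes were tested. By limma 0 rose and 0 fell, against 2.75% and 4.06% of all tested, and 0 had an unadjusted p under 0.05, against 25.9%. Their median was -0.09, and the differences ran from -0.19 (Rps4x) to 0.17 (Rps27). The tested Rps4x probe set read 18941, 18976, 18797 and 16331 in confluent and 14952, 17260, 16685 and 14983 in subconfluent cells. Only confluent replicate 4 fell within the subconfluent range, and all 4 pairs went down. Its difference was -0.19 ± 0.12 SE (limma adjusted p = 0.339). Rps27, a zinc finger protein, read 882, 1073, 1224 and 1147 in confluent and 1146, 1339, 1142 and 1247 in subconfluent cells. The groups overlapped, and its difference was 0.17 ± 0.15 SE (adjusted p = 0.528).

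Rps18, a protein of the subunit's head, read 30504, 32080, 33822 and 27080 in confluent and 23445, 31950, 31863 and 23787 in subconfluent cells. All 4 pairs went down with overlap, and its difference was -0.16 (interval -0.48 to 0.15). Rps19, needed for maturation of the small subunit and mutated in Diamond-Blackfan anaemia, varied more between pairs than between groups. It read 17516, 7752, 8604 and 12307 in confluent and 12604, 7524, 8377 and 11974 in subconfluent cells. Arrays 1 and 4 were high and arrays 2 and 3 low in both groups, and the difference was -0.15 (interval -0.73 to 0.43). Rps3, which lies at the entry of the mRNA channel, was at 0.00 (interval -0.33 to 0.33). Its confluent arrays held 14251 ± 197 and its subconfluent ones 14467 ± 2934 (SD, n = 4). Rps10, a protein of the head, was at -0.09 (interval -0.39 to 0.21).

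For the remaining small subunit proteins too the groups overlapped. Rps3a1, another small subunit protein, read 13793, 14487, 15817 and 14422 in confluent and 11464, 14390, 15587 and 13200 in subconfluent cells. It went down in all 4 pairs, and its difference was -0.11 (interval -0.40 to 0.18). Rps7, needed for maturation of the small subunit's RNA, read 17763, 16865, 13275 and 14414 in confluent and 13969, 15911, 14692 and 12451 in subconfluent cells. It went up in the third pair and down in the others, with a difference of -0.12 (interval -0.43 to 0.18). Rps29, another zinc-binding protein, read 253, 274, 241 and 279 in confluent and 325, 270, 323 and 215 in subconfluent cells. Its subconfluent range enclosed the confluent one, and the difference was 0.08 (interval -0.30 to 0.46).

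Rps28, which takes part in the exit of the mRNA channel, had 3 tested probe sets. The one whose name marks no family or other exception read 26642, 27128, 26466 and 23229 in confluent and 19536, 28537, 25914 and 19563 in subconfluent cells. Subconfluent replicates 1 and 4 lay below all confluent arrays and replicate 2 above them, and the difference was -0.16 (interval -0.49 to 0.16). The other 2 were both at -0.08. Of these the brighter, a family-type probe set, read 49242 on subconfluent replicate 2 and 24150 on subconfluent replicate 4, and the dimmer ranged from 153 to 482. For Rps24, a protein needed for processing of the small subunit's RNA, the bright probe set read 25952, 29565, 27901 and 23436 in confluent and 23085, 40054, 29017 and 21500 in subconfluent cells. Subconfluent replicate 2 stood above all others, and the difference was 0.05 (interval -0.36 to 0.46). The annotation gives this probe set the same GenBank record as the bright Rpl7 probe set, although it names another gene, so its identity is uncertain. The second Rps24 probe set read 35.3 to 159 and was not tested.

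Paralogs of ribosomal proteins are gene copies related to the main form. Of 5 such probe sets in the set, the 1 of Rpl7l1, a relative of Rpl7, was tested. It read 504, 374, 327 and 354 in confluent and 564, 525, 454 and 450 in subconfluent cells. It was the only tested member that went up in all 4 pairs, and the groups overlapped through confluent replicate 1. The difference was 0.33 ± 0.17 SE (limma adjusted p = 0.241; interval -0.04 to 0.70), the highest of the 28. In all, 7 of the 28 probe sets went down in every pair and 1 went up, against 22.1% and 20.7% of all tested probe sets.

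Ribosomal protein genes that the symbol rule does not take gave similar values. Rpsa, the small subunit protein first described as a laminin receptor, read 9319, 9849, 9640 and 8438 in confluent and 7621, 8474, 8442 and 7051 in subconfluent cells. Its difference was -0.24 ± 0.13 SE (limma adjusted p = 0.271), down in all 4 pairs with a narrow overlap. Fau, which encodes a small subunit protein fused to a ubiquitin-like one, read 43.0 to 123 and was not tested. A further 39 probe sets name a ribosomal protein together with pseudogenes or other genes and are not named singly. Of these 34 were tested, with a median of -0.07. By limma 0 rose and 0 fell, against 2.75% and 4.06% of all tested. At an unadjusted p under 0.05 there were 2, against 25.9% of all tested.

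The ribosomal protein probe sets also shifted from array to array within a group. Relative to each probe set's confluent mean, the median of the 28 was 0.03, 0.06, -0.02 and -0.10 on confluent arrays 1 to 4. On subconfluent arrays 1 to 4 it was -0.19, 0.10, 0.07 and -0.26. Subconfluent replicates 2 and 3 thus lay above all confluent arrays, and replicates 1 and 4 below all of them. The subunits gave 40S medians of -0.28, 0.11, 0.08 and -0.28 and 60S medians of -0.10, 0.08, 0.04 and -0.26 on the subconfluent arrays. The summed signal of all 48 was 4.54% ± 0.249 of the total on the confluent arrays and 4.32% ± 0.511 on the subconfluent arrays (SD, n = 4).

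These medians moved with the scale factor, the number by which an array was multiplied to reach its target. The 3 arrays with factors of 3.05, 3.56 and 4.39 had the medians -0.26, -0.10 and -0.19. The 5 arrays with factors from 5.58 to 13.3 had medians from -0.02 to 0.10. The 76 other tested probe sets with a mean above 10000 had medians of 0.00, 0.00 and -0.12 on the same 3 arrays. On the other 5, in order of rising factor (5.58, 7.35, 8.19, 8.99 and 13.3), they were at -0.11, 0.09, 0.10, 0.08 and 0.23. The -0.11 and the -0.12 are the 2 arrays of chip lot A. With the scale factor as a covariate the median difference of the 28 was -0.09, and Rpl22 stayed the 1 probe set that passed. Without subconfluent replicate 4 the median was 0.00, without subconfluent replicate 1 it was -0.03, without confluent replicate 1 it was -0.05, and without subconfluent replicate 2 it was -0.15. Within chip lot A, with 1 array of each group, it was -0.27, and within lot C, with 1 against 2, it was -0.12. Lot B held only confluent replicates 2 and 4, and lot D only subconfluent replicate 2. With lot as a fixed block the median of the 28 was -0.17, and with lot as a random block -0.10.

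**Figure D4:**
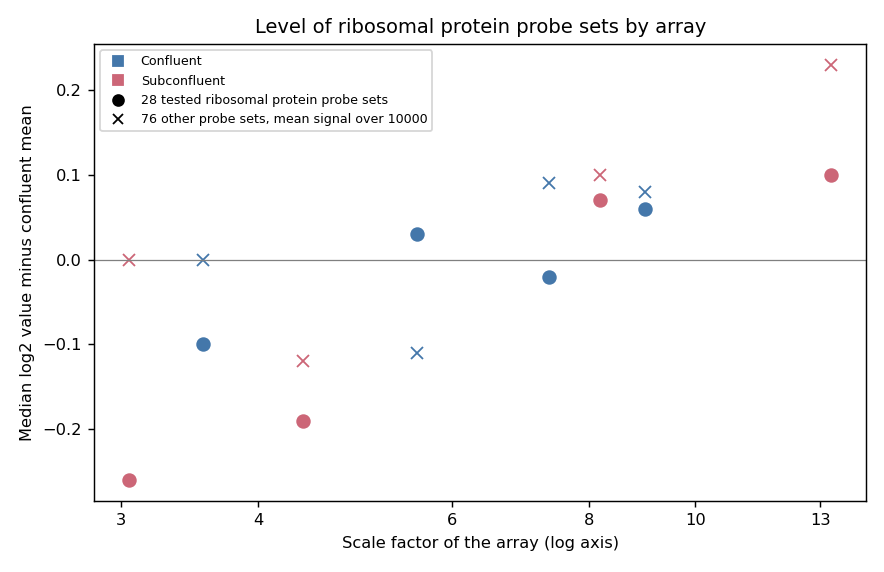
Median log2 value on each of the 8 arrays, relative to the confluent mean of each probe set, against the array's scale factor on a log axis, for the 28 tested ribosomal protein probe sets (circles) and 76 other probe sets with a mean above 10000 (crosses). The ribosomal protein medians run from -0.26 at a factor of 3.05 to 0.10 at 13.3.

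Some genes that make ribosomes and some translation factors rose in subconfluent cells. In each list 1 probe set stood for a gene, and no listed gene fell by limma without the pairing. Of 41 tested genes for nucleolar ribosome biogenesis 10 rose and 0 fell, against 2.75% and 4.06% of all tested probe sets, with a median of 0.50. At an unadjusted p under 0.05 it was 27 of 41, against 25.9% of all tested. With the experiment numbers as pairs 21 rose at the adjusted threshold, against 9.94% of all tested. Of the 41 tested genes 21 had all subconfluent values above all confluent ones, against 8.34% of all tested probe sets. The 10 called genes were among these 21.

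Ncl encodes nucleolin, the major protein of the nucleolus. It read 7544, 12066, 8585 and 5305 in confluent and 15055, 17519, 14572 and 12213 in subconfluent cells (0.87 ± 0.22 SE, limma adjusted p = 0.0435). Nop56, of the complex that methylates ribosomal RNA, read 1172, 2812, 1978 and 1912 in confluent and 3859, 3908, 3604 and 4001 in subconfluent cells (1.01 ± 0.23 SE, adjusted p = 0.0293). Neither gene's groups overlapped, though for Ncl confluent replicate 2 lay just below subconfluent replicate 4. Bop1, an assembly factor of the large subunit, read 573, 931, 575 and 427 against 1115, 1349, 1676 and 1206 (1.07, adjusted p = 0.0230). Ebna1bp2, another large subunit assembly factor, read 250, 404, 380 and 368 against 811, 854, 624 and 770 (1.03, adjusted p = 0.0115). Mybbp1a, a nucleolar protein that binds Myb, read 400, 634, 400 and 372 against 1565, 1135, 792 and 1016 (1.22, adjusted p = 0.0160). These last 3 all gained more than 2-fold on this scale.

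Polr1b, a large subunit of RNA polymerase I, read 278, 586, 399 and 451 in confluent and 925, 876, 624 and 755 in subconfluent cells (0.85, limma adjusted p = 0.0409). Nip7, needed for processing of ribosomal RNA, read 910, 1201, 870 and 934 against 2273, 2014, 1550 and 1539 (0.87, adjusted p = 0.0211). Ddx18, an RNA helicase of the nucleolus, read 535, 925, 711 and 828 against 1090, 1368, 1234 and 1444 (0.76, adjusted p = 0.0370). All 3 rose in each of the 4 pairs. Nop2, which methylates ribosomal RNA, read 1440, 1831, 2084 and 2207 against 2642, 3107, 2816 and 3239 (0.64, adjusted p = 0.0441). Eif6, which keeps 60S subunits apart from 40S, read 1613, 1502, 1466 and 1766 against 2440, 2191, 2382 and 2527 (0.57, adjusted p = 0.0335). Ebna1bp2 and Mybbp1a kept their call in all 8 fits that left out 1 array. Each of the other 8 genes lost it in at least 4 of those fits, with an adjusted p up to 0.111. Within chip lot C, with 1 array against 2, too few arrays to weigh a call, the differences of the 10 ran from 0.52 (Nop2) to 1.24 (Bop1).

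Of 29 tested initiation factors 3 rose, Eif6 among them, and 0 fell, against 2.75% and 4.06% of all tested probe sets. Their median was 0.19. Of these 29, 7 had an unadjusted p under 0.05, close to the 25.9% of all tested probe sets, and 7 rose with the pairs, against 9.94% of all tested. Eif2s3x, a subunit of eIF2, which brings the initiator tRNA, read 2178, 3029, 2266 and 2858 against 3534, 4069, 3914 and 4226 (0.61, limma adjusted p = 0.0416). Eif2b1, of the factor that recharges eIF2, read 544, 611, 608 and 760 against 937, 1061, 909 and 1044 (0.61, adjusted p = 0.0365). Of 8 elongation, release and recycling factors 1 rose and 0 fell, against 2.75% and 4.06% of all tested, with a median of 0.34. Of these 8, 2 had an unadjusted p under 0.05, against 25.9% of all tested. With the pairs 4 rose, against 9.94% of all tested. The called gene was Abce1, which splits ribosomes for recycling, at 1795, 2648, 2386 and 2164 against 4408, 3756, 3087 and 3094 (0.66, adjusted p = 0.0483).

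A fixed list held other genes described as having RNAs with the oligopyrimidine tract, which was not looked for in them here. Of the 16 tested 1 rose and 0 fell, against 2.75% and 4.06% of all tested. Their median was 0.14. Here 4 had an unadjusted p under 0.05, against 25.9% of all tested, and 4 rose with the pairs, against 9.94%. The called gene was the chaperonin gene Cct4, at 4740, 5196, 4365 and 5207 against 6430, 6762, 7088 and 7042 (0.48, limma adjusted p = 0.0470). Of 55 genes for proteins of the separate ribosome of mitochondria 2 rose and 0 fell, near the 2.75% and 4.06% of all tested probe sets, and the median was 0.12. The 13 at an unadjusted p under 0.05 and, with pairing, the 7 higher and 1 lower call stand beside 25.9%, 9.94% and 11.3% of all tested. Mrps7 read 636, 928, 850 and 867 against 1676, 1219, 1295 and 1393 (0.74, adjusted p = 0.0308). Mrpl20 read 258, 463, 466 and 494 against 828, 700, 652 and 712 (0.75, adjusted p = 0.0470). The genes of this paragraph and the initiation and recycling factors above each lost their call in at least 6 of the 8 fits that left out 1 array, with an adjusted p up to 0.114. Whether a list differs from the ribosomal proteins was not tested.

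**Figure D5:**
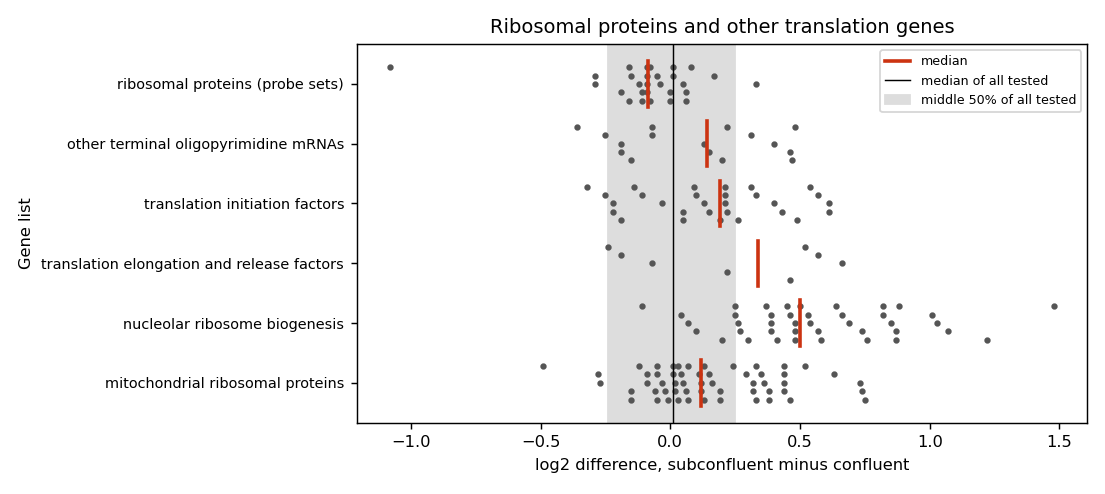
The log2 difference of each tested ribosomal protein probe set and of each tested gene of 5 other translation lists (dots, spread vertically for legibility), with the median of each list in red, the median of all 6007 tested probe sets as a black line and their middle 50% in grey. The ribosomal proteins lie at a median of -0.08 and the nucleolar ribosome biogenesis genes at 0.50.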

How the data were processed

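The authors deposited 1 signal per probe set and array, made with the Affymetrix statistical algorithm and scaled to 500, as the labels state, with no software version given in the sources used here. These deposited signals were raised by 50 and put on the log2 scale, so differences of weak signals come out smaller. Of 12488 probe sets 66 controls were left out, and 6007 whose signal averaged 200 or more were tested. The platform annotation gave 1 symbol to 10833 of the 12422 others, several to 396 and none to 1193. Groups were compared in R 4.3.3 with limma 3.58.1 (a linear model and moderated variances with a trend), two-sided, with Benjamini-Hochberg adjustment over all tested probe sets and a threshold of 0.05. The fit was tested on simulated data. Intervals are 95% intervals from limma. The number of arrays limits the precision, and no label says whether cultures were independent, so p-values measure only the spread between these samples, which may be technical.

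Arrays of the same experiment number deviated together (correlations of 0.486, 0.357, 0.516 and 0.348 across probe sets, against at most 0.0681 for other combinations). Equal numbers were therefore treated as pairs in a further fit, whose counts are marked as such. The adjusted p-values, SEs and intervals given for single genes, and the fits that left out 1 array, do not use the pairs. Alternatives were the pairs as a block, other pseudocounts, filters and normalizations, chip lot, scale factor, array weights, no variance trend and leaving out each array. Values by array are given for probe sets that passed, the 8 with the smallest p in each direction, the P stalk and genes whose probe sets disagree in sign, and, from other lists, for genes that passed or else the 2 with the smallest p. Rps19, Rps3, and the second probe sets of Rpl22, Rps28 and Rpl19 were added after their values were seen. The members and lists were chosen with earlier results of these data known. Sequences are from RefSeq. Python 3.11.15 with pandas 2.3.3 and matplotlib 3.10.9 made the tables and plots.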

Additional observations from a re-analysis of the deposited data

Results flagged for a closer look

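Among the 70 groups of 4 arrays examined, 7 held 1 array far from the other 3, where chance gives about 1 in 20. The member probe sets added after their values were seen, such as the dimmer one of Rpl22, were not examined. That one read 341 on confluent replicate 4, with the other confluent arrays at 158 to 179. It read 268 on subconfluent replicate 1, with the other subconfluent arrays at 159 to 170. Confluent replicate 4 was low for Rplp0 (23735, others 27378 to 27920), the Rps28 probe set with a plain name (23229, others 26466 to 27128) and Rps4x (16331, others 18797 to 18976). Confluent replicate 1 was high for the brighter Rpl22 probe set (801, others 524 to 551) and the dimmer Rpl10a probe set (8084, others 4943 to 5305), and low for Mrpl20 (258, others 463 to 494). Confluent replicate 2 was high for Mybbp1a (634, others 372 to 400). Without confluent replicate 1 the Rpl22 difference was -0.95.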

How the results depend on the processing

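The count of probe sets that rose was 0 under every alternative with a test. Leaving lot C aside, the count that fell was 1, always Rpl22, except 0 with a filter of 500, which left Rpl22 untested. Within lot C, with 1 array against 2, too few arrays to weigh a call, the Rpl22 difference was -0.78. Within lot A the medians were -0.27 for all 28, -0.34 for 40S and -0.25 for 60S, the Rpl22 difference was -1.64, and no test was possible with 1 array a group. When single arrays were left out, the medians ran from -0.15 to 0.00, -0.16 to -0.03 and -0.15 to 0.00. With the replicate block, which pairs the arrays by number, the member counts were 0 and 1, the median was -0.08, and no call on a member changed. Among the 17 ribosomal protein probe sets that the naming rule took, 8 with uncalled differences changed sign somewhere. With chip lot as a fixed block Rpl41 was at -0.27, Rpl8 at -0.04 and Rps24 at -0.16, and with lot as a random block Rpl41 was at -0.06. Within lot A Rpl41, Rpl7a, Rpl8 and Rps24 were at -0.24, -0.03, -0.19 and -0.17. Within lot C Rpl37a, Rpl41, Rps24, Rps27 and Rps7 were at -0.02, -0.29, -0.16, -0.04 and 0.03. With the scale factor as a covariate Rpl41 was at -0.01. With array weights Rpl37a, Rpl41, Rpl8, Rps24 and Rps29 were at -0.03, -0.09, -0.01, -0.04 and -0.01. Without single arrays Rpl37a ran from -0.01 to 0.14, Rpl41 from -0.17 to 0.12, Rpl8 from -0.06 to 0.07 and Rps24 from -0.13 to 0.17. For the 16 called genes in the other lists, the differences within lot C ran from 0.37 (Abce1) to 1.24 (Bop1). Of these 16, 9 lost their call with no filter and 4 with lot as a fixed block (Abce1, Bop1, Ncl, Nop2). Calls were also lost by 4 with no variance trend, 3 with the scale factor (Abce1, Mrpl20, Nop2), 2 with quantile normalization and 1 with a pseudocount of 1. The cause was not tested. Signal over background limits the 20 untested probe sets.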
